A study of Bos taurus with 6 samples.

Results

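The genes described here encode plasma proteins of the fetus: the fetuins AHSG and FETUB, albumin (ALB) and alpha-fetoprotein (AFP), alpha-1-B glycoprotein (A1BG), secreted phosphoprotein 24 (SPP2), kininogen (KNG1), retinol-binding protein (RBP4) and alpha-2-macroglobulin (A2M). They are 9 of the 14179 gene symbols in the count table, taken by name, and all 9 were among the 11478 genes tested. Poly(A) RNA was sequenced from forebrain, liver and rumen, the largest forestomach chamber of cattle, with 2 libraries per tissue. All 6 libraries came from wild-type male Holstein fetuses at 90 days of gestation, collected at a slaughterhouse, and no treatment or engineered allele was involved. The labels give 2 male fetuses without tying a library to either, so at most 2 animals stand behind the libraries. The p-values therefore reflect nothing beyond the spread among these libraries, and that spread may be technical. The comparisons ask how far the transcripts of these proteins were restricted to liver at this age, and what trace of them the other tissues held.

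The liver makes most of the proteins dissolved in plasma, and in the fetus it does so while it also houses blood formation. AHSG, FETUB, KNG1 and SPP2 carry domains of the cystatin type, a fold first known from protease inhibitors. ALB and AFP are members of another family, in which AFP dominates fetal plasma in many mammals and gives way to ALB around birth. RBP4 carries retinol from liver to tissues, and A2M is a large trap for proteases of many kinds.

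Total counts per library ran from 10271024 to 18528958. CPM, the level used here, is a count scaled to a common library size after edgeR's TMM correction. At this depth a pooled total of 3 counts was worth 0.115 CPM for the forebrain pair, 0.103 CPM for the liver pair and 0.116 CPM for the rumen pair. Where a tissue had no count, its fold is printed as a lower bound against this floor, which covers counting error only. The libraries of the liver pair were the least alike. Among genes averaging 1000 counts or more, their log2 ratio spread with an SD of 0.942, compared with 0.248 for the forebrain pair and 0.211 for the rumen pair. The defining hepatocyte marker HNF4A stood at 107 and 329 CPM in the liver libraries, and the erythroid list took 12.8% and 5.52% of all counts in Liver 1 and Liver 2. The forebrain neuron gene STMN2 stood at 5490 ± 212 CPM and the rumen keratin gene KRT15 at 7065 ± 1124 CPM in their own tissues (SD, n = 2). In bulk tissue, fewer cells of a type and less RNA per cell cannot be told apart.

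The 9 transcripts together made up 14.5% of all counts in Liver 1 (95% Wilson interval 14.53 to 14.57%) and 10.7% in Liver 2 (10.67 to 10.70%). In the other 4 libraries they made up 0.0134 to 0.0187%. All 9 were higher in liver than in forebrain and all 9 were higher in liver than in rumen, by the quasi-likelihood test of edgeR, with p-values adjusted over all tested genes after Benjamini and Hochberg. The background is broad. In liver against forebrain 55.3% of tested genes passed, 29.4% higher and 25.9% lower, and in liver against rumen 40.3% passed, 20.3% higher and 20.1% lower. Higher in both were 15.1% of tested genes. FETUB, AFP, A1BG, SPP2 and KNG1 passed the filter on low counts through liver alone and so had to differ, and the count of 9 is therefore a description. The comparisons share libraries, each tissue entering 2 of the 3, and are not independent of each other. Where different genes are ranked or set as ratios, counts or CPM are compared and not numbers of transcripts, because neither is scaled for transcript length.

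**Figure D1:**
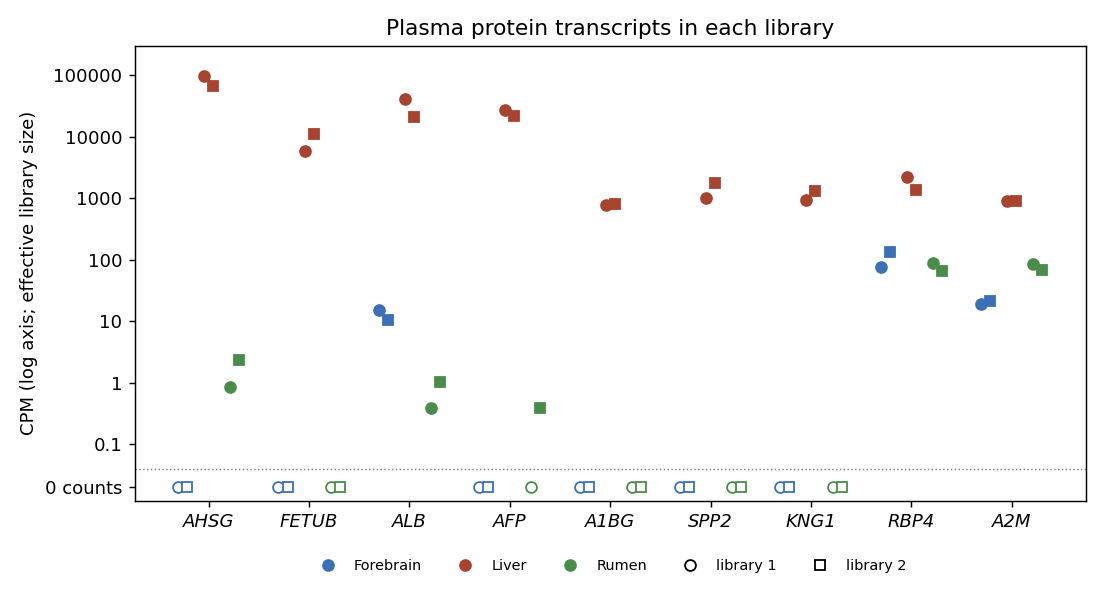
Level of each transcript in each library, in CPM on a log axis, coloured by tissue, with circles for library 1 and squares for library 2. Libraries without a count are set on the lowest line. For each of the 9 genes both liver libraries lie above all other libraries, and RBP4 and A2M are the members that were counted in all 6 libraries at 19.3 CPM or more.

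Fetuin-A, AHSG, is a glycoprotein that binds calcium phosphate and keeps it from precipitating in blood, and it is known as a major protein of fetal calf serum. It stood at 98900 CPM in Liver 1 and 67412 CPM in Liver 2, or 83156 ± 22266 CPM (SD, n = 2). AHSG ranked 2 among all genes in Liver 1 and 1 in Liver 2, by count. Rumen held 0.842 and 2.34 CPM, from 11 and 30 counts, and forebrain had no count in either library. The tissues did not overlap, and rumen reached 0.00193% of the pooled liver level. Liver was 52051-fold above rumen (log2 fold change 15.67 ± 0.88 (SE), adjusted p = 0.000285, edgeR) and at least 714851-fold above forebrain (adjusted p = 0.0001, edgeR). Against rumen the log2 fold change was 15.11 without Rumen 1 and 16.55 without Rumen 2.

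Fetuin-B, FETUB, inhibits the protease of the egg that hardens its coat, as known from mouse. Its levels were 5948 CPM in Liver 1 and 11051 CPM in Liver 2, or 8500 ± 3609 CPM (SD, n = 2). FETUB had no count in the 4 libraries of forebrain and rumen. By its pooled level, liver was at least 75740-fold above forebrain (adjusted p = 0.000204) and at least 74955-fold above rumen (adjusted p = 0.000406, edgeR). The fetuins differed in which liver library was the higher: FETUB counts were 0.0601 of AHSG counts in Liver 1 and 0.164 in Liver 2.

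KNG1 is the precursor of bradykinin, a peptide that widens vessels, and it also inhibits cysteine proteases. It stood at 937 CPM in Liver 1 and 1316 CPM in Liver 2, or 1126 ± 268 CPM (SD, n = 2), and had no count elsewhere. That put liver at least 9941-fold above forebrain (adjusted p = 0.000129) and at least 9838-fold above rumen (adjusted p = 0.000285, edgeR). RefSeq lists KNG and KNG2 as synonyms of this gene in cattle, so reads of near-identical kininogen copies may be counted here and the level is uncertain to that extent.

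SPP2, first purified from cattle bone, binds bone morphogenetic proteins and carries a cystatin-like domain. It stood at 995 CPM in Liver 1 and 1780 CPM in Liver 2, or 1388 ± 555 CPM (SD, n = 2), without a count in the other tissues. Liver was at least 12350-fold above forebrain (adjusted p = 0.000216) and at least 12222-fold above rumen (adjusted p = 0.00043, edgeR). SPP2 and KNG1 thus shared the pattern of FETUB, with the higher level in Liver 2 and none outside liver.

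ALB holds water in the blood and carries fatty acids and hormones. It stood at 41199 CPM in Liver 1 and 21196 CPM in Liver 2, or 31198 ± 14144 CPM (SD, n = 2). Forebrain held 15.4 and 10.2 CPM, from 190 and 142 counts, and rumen 0.383 and 1.01 CPM, from 5 and 13 counts. The order liver, forebrain, rumen held without overlap between tissues. Liver was 2429-fold above forebrain (log2 fold change 11.25 ± 0.72 (SE), adjusted p = 9.35e-05) and 44198-fold above rumen (15.43 ± 0.84 (SE), adjusted p = 0.000222, edgeR). The log2 fold change against forebrain was 10.69 without Liver 1 and 11.65 without Liver 2. Against rumen it was 14.88 without Liver 1, 14.90 without Rumen 1 and 16.26 without Rumen 2.

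AFP, the albumin of early life and of the yolk sac, stood at 27433 CPM in Liver 1 and 21354 CPM in Liver 2, or 24393 ± 4298 CPM (SD, n = 2). Forebrain and Rumen 1 had no count of it, and Rumen 2 had 5, or 0.390 CPM. Liver was at least 210712-fold above forebrain (adjusted p = 0.000127, edgeR). Against rumen the fit gave 120334-fold (log2 fold change 16.88, adjusted p = 0.000296, edgeR), a value that rests on the 5 counts of Rumen 2 and was 15.90 on the log2 scale without Rumen 1. The ratio of AFP to ALB counts was 0.666 in Liver 1 and 1.01 in Liver 2. ALB was thus the more counted of the pair in Liver 1, and the pair was nearly even in Liver 2.

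RBP4, the carrier that brings retinol out of the liver bound to transthyretin, was present in all 3 tissues. It stood at 2183 and 1365 CPM in the liver libraries, 77.4 and 134 CPM in forebrain, and 88.1 and 65.9 CPM in rumen. Both liver libraries were above the other 4, and forebrain and rumen overlapped. Liver, at 1774 ± 578 CPM, was 16.8-fold above forebrain, at 106 ± 39.9 CPM (SD, n = 2; log2 fold change 4.07 ± 0.41 (SE), adjusted p = 0.000426, edgeR). It was 23.0-fold above rumen, at 77.0 ± 15.7 CPM (SD, n = 2; 4.53 ± 0.42 (SE), adjusted p = 0.000579, edgeR). Without Liver 1 the log2 fold change against forebrain was 3.69. Rumen and forebrain were not separated by the test, with a log2 fold change of -0.46 (95% interval -1.34 to 0.43, adjusted p = 0.365, edgeR), and 0.02 without Forebrain 2.

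The partners of RBP4 did not share its spread over tissues. Transthyretin, TTR, which holds RBP4 in plasma and also carries thyroid hormone, stood at 2180 and 2691 CPM in liver, but its forebrain levels were 0.569 and 2.81 CPM, and its rumen levels 0.306 and 0.0780 CPM. TTR counts were 0.998 of RBP4 counts in Liver 1 and 1.97 in Liver 2. Outside liver the same ratio lay between 0.00118 and 0.0210. In rumen and forebrain RBP4 was thus counted with almost no TTR.

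STRA6, the receptor through which cells take retinol from RBP4, had forebrain levels of 9.07 ± 5.35 CPM, liver levels of 0.321 ± 0.454 CPM and rumen levels of 1.13 ± 1.16 CPM (SD, n = 2). It was 26.7-fold lower in liver than in forebrain (adjusted p = 0.0331, edgeR), a call lost without either Forebrain library (highest adjusted p = 0.183, edgeR). The size is uncertain, because Liver 1 had no count and Liver 2 had 10: the fitted log2 fold change ran from -9.90 without Liver 2 to -3.81 without Liver 1. LRAT, which stores retinol as esters, was 3.62-fold higher in liver than in forebrain (adjusted p = 0.0105) and 4.03-fold higher than in rumen (adjusted p = 0.0114, edgeR), at 20.8 ± 2.65, 5.73 ± 1.67 and 5.14 ± 0.126 CPM in liver, forebrain and rumen (SD, n = 2). The LRAT calls were lost without Forebrain 2 and without either Rumen library, respectively. DHRS3, which turns retinal back to retinol, was 8.13-fold higher in rumen than in forebrain, at 146 ± 21.5 against 18.0 ± 3.89 CPM (SD, n = 2; adjusted p = 0.00126, edgeR). In liver, at 48.6 ± 17.0 CPM (SD, n = 2), it was 2.70-fold above forebrain (adjusted p = 0.0108) and 3.01-fold below rumen (adjusted p = 0.0103, edgeR). The DHRS3 call against forebrain was lost without Forebrain 2 and with scaling by library totals alone, and the call against rumen was lost without Rumen 1.

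A2M, like RBP4, was counted in every library. It stood at 884 and 890 CPM in liver, 86.1 and 67.9 CPM in rumen, and 19.3 and 21.5 CPM in forebrain. The tissues did not overlap, and the order was liver, rumen, forebrain. Liver, at 887 ± 4.21 CPM, was 43.5-fold above forebrain, at 20.4 ± 1.58 CPM (SD, n = 2; log2 fold change 5.44 ± 0.26 (SE), adjusted p = 6.06e-05, edgeR). It was 11.5-fold above rumen, at 77.0 ± 12.9 CPM (SD, n = 2; 3.53 ± 0.24 (SE), adjusted p = 0.000264, edgeR). Rumen was in turn 3.77-fold above forebrain (1.92 ± 0.23 (SE), adjusted p = 0.00143, edgeR).

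The related gene A2ML1, a protease trap of stratified epithelia in human, had another pattern. Its rumen level was 215 ± 8.66 CPM and its forebrain level 4.77 ± 0.726 CPM (SD, n = 2), with 2 counts in liver, all in Liver 1. Rumen was 44.9-fold above forebrain (adjusted p = 0.000388, edgeR). Both were lower in forebrain than in rumen, but the tissue with the highest level was liver for A2M and rumen for A2ML1. Endothelium and mesenchyme can also express A2M in other species. In the endothelium list, the summed level was 241 and 322 CPM in forebrain, 1593 and 961 CPM in liver, and 444 and 374 CPM in rumen, the same order of tissues as A2M. The order was another in the mesenchymal lists, where pericyte and stellate genes summed to 409 and 377 CPM in forebrain, 516 and 454 CPM in liver and 742 and 639 CPM in rumen. Meninges and fibroblast genes summed to 249 and 386 CPM in forebrain, 1113 and 994 CPM in liver and 15940 and 16689 CPM in rumen. Single endothelial genes also departed from the order, such as EMCN, named after its values were seen, which was highest in rumen at 34.4 ± 3.15 CPM (SD, n = 2). The part of these cells in the A2M levels was not tested.

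A1BG belongs to the immunoglobulin superfamily, and its role in plasma is poorly known. It stood at 772 CPM in Liver 1 and 815 CPM in Liver 2, or 793 ± 30.2 CPM (SD, n = 2), and had no count elsewhere. Liver was at least 6929-fold above forebrain (adjusted p = 9.15e-05) and at least 6857-fold above rumen (adjusted p = 0.000229, edgeR). A1BG and A2M were the members whose liver libraries lay closest together.

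**Figure D2:**
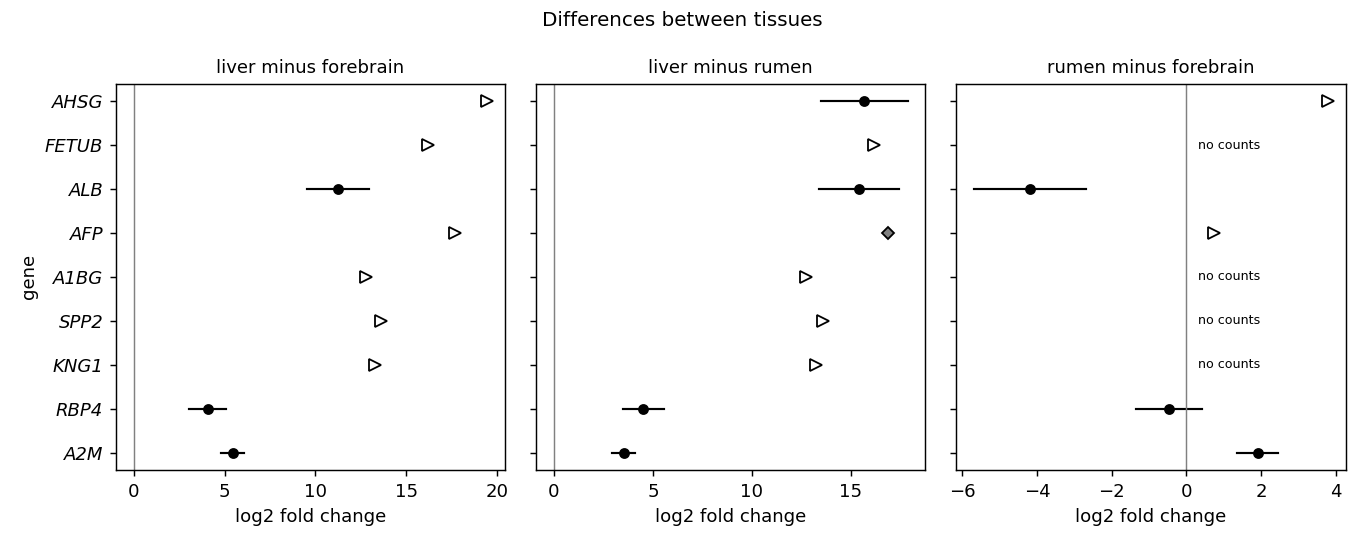
Log2 fold changes of the 9 genes in the 3 comparisons. Filled circles are fitted values with 95% intervals, open triangles are lower bounds against a tissue without counts, and the diamond is AFP against rumen, fitted on counts of Rumen 2 alone. Every liver comparison lies right of 0, and in rumen against forebrain ALB lies left of 0, at -4.19, and A2M right of it, at 1.92.

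Rumen and forebrain were then compared with each other, a comparison in which 39.3% of all tested genes passed, 19.5% higher and 19.9% lower in rumen. Of the members, A2M and AHSG were higher in rumen and ALB was lower. ALB fell by 4.19 on the log2 scale from forebrain to rumen (SE 0.62, 18.2-fold, adjusted p = 0.00319, edgeR), with -3.65 without Rumen 1 and -5.01 without Rumen 2. By the pooled rumen level, AHSG was at least 13.8-fold higher in rumen (adjusted p = 0.0148, edgeR), and the call was lost without Rumen 2. The rumen libraries behind this bound stood at 0.842 and 2.34 CPM. AFP, with its 5 counts in 1 rumen library, did not pass (adjusted p = 0.184, edgeR), but did with DESeq2 (adjusted p = 0.0464). RBP4 did not pass, as given above, and FETUB, A1BG, SPP2 and KNG1 had no count to compare.

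The traces in the 2 tissues had different make-ups. In rumen the 18 counts of ALB stood to the 41 of AHSG as 0.439 (95% interval 0.237 to 0.781), and the liver libraries gave 0.417 and 0.314. In forebrain, in contrast, 332 counts of ALB came with none of AHSG or AFP, which limits both ratios to 0.00904. The iron carrier TF, at 1.71 and 1.37 CPM in forebrain, stood to ALB as 0.120 there (0.0845 to 0.168), against 0.290 and 0.287 in liver. TTR stood to ALB as 0.139 in forebrain (0.0995 to 0.189), against 0.0529 and 0.127 in liver. Among the genes compared here, the forebrain trace held ALB, TF, TTR and 32 counts of the fibrinogen chain FGB, without AHSG, AFP or the protease inhibitor SERPINA1. Other plasma proteins were counted in both tissues, such as C3 and SERPINF1, with 352 and 52 counts in forebrain and 301 and 649 in rumen. In rumen, SERPINA1 stood to AHSG as 0.244 (0.109 to 0.495), against 0.434 and 0.975 in liver. FGB stood to AHSG as 1.07 in rumen (0.685 to 1.68), but as 0.0635 and 0.136 in liver. These intervals cover counting error only, and the FGB counts did not keep the proportion that liver shows.

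Markers of other tissues were set beside these traces. HNF4A had no count in rumen, and its forebrain level was 0.302 ± 0.0827 CPM (SD, n = 2). The summed hepatocyte enzyme list ran from 108 to 117 CPM over the forebrain libraries and from 196 to 208 CPM over those of rumen, against 3765 and 3040 CPM in liver. The fetal haemoglobin gene HBG averaged 419 CPM over the forebrain libraries and 421 CPM over those of rumen. In the list for choroid plexus, the brain's own site of TTR, 11 of 14 genes were in the table. KCNJ13 had 1 and 0 counts in the forebrain libraries, FOLR1 1 and 6, and KL none. OTX2, also a gene of the forebrain itself, stood at 142 ± 56.9 CPM (SD, n = 2). After OTX2, the highest tested genes of this list in forebrain were ENPP2, averaging 62.0 CPM, and TRPM3, averaging 6.21 CPM. The summed choroid plexus list stood at 255 and 174 CPM in Forebrain 1 and 2, at 2305 and 2990 CPM in liver, where TTR makes up most of it, and at 102 and 107 CPM in rumen. The part of any of these cells in the traces was not tested.

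The members did not shift together between the liver libraries. From Liver 1 to Liver 2, on the log2 scale, FETUB was higher by 0.89, SPP2 by 0.84, KNG1 by 0.49, A1BG by 0.08 and A2M by 0.01. The difference was -0.36 for AFP, -0.55 for AHSG, -0.68 for RBP4 and -0.96 for ALB. Thus 5 members were higher in Liver 2 and 4 in Liver 1. Among the 2775 genes that averaged 1000 counts or more in liver, the middle 80% lay between -0.95 and 1.34, and 8 of the 9 members fell inside, with ALB just outside.

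**Figure D3:**
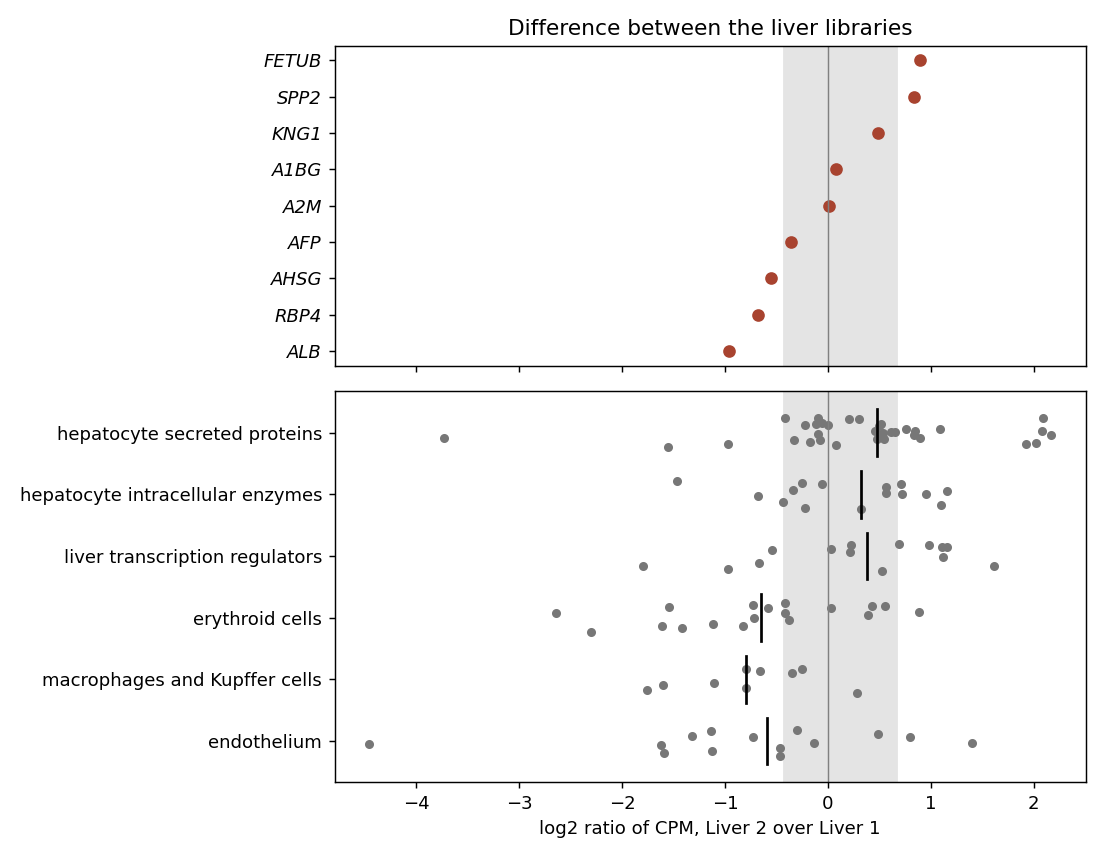
Log2 ratio of CPM, Liver 2 over Liver 1, for the 9 genes (upper panel) and for the genes of marker lists with at least 200 counts summed over both libraries (lower panel). The members run from -0.96 for ALB to 0.89 for FETUB, and the lists of erythroid cells, macrophages and endothelium have medians below 0.

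Cell type lists also differed between the liver libraries. The median log2 ratio of Liver 2 to Liver 1 was 0.47 over 35 other secreted proteins of hepatocytes, 0.33 over 15 of their enzymes and 0.38 over 14 liver transcription regulators. It was -0.65 over 18 erythroid genes, -0.80 over 9 macrophage genes and -0.60 over 14 endothelial genes. The summed erythroid level was 158064 CPM in Liver 1 and 65736 CPM in Liver 2. AHSG, ALB, AFP and RBP4 were therefore lower, and FETUB, SPP2 and KNG1 higher, in the library with the lower erythroid level. The part of this difference in the members' levels was not tested.

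Some members lie side by side in RefSeq gene order. KNG1, HRG, FETUB and AHSG are neighbours in this order, as are ALB, AFP and AFM, and A1BG, SPP2, RBP4 and A2M have no other member among the 4 genes on either side. HRG, a histidine-rich plasma protein of the cystatin superfamily, stood at 39.3 and 177 CPM in liver with no count elsewhere. Its pooled liver level was at least 988-fold above forebrain, a bound that leaves out the spread between the liver libraries. AFM, the vitamin E carrier afamin, stood at 114 and 212 CPM in liver, also with no count elsewhere, and at least 1453-fold above forebrain. Both entered the test through liver alone and so had to differ. Flanking genes that were read on both sides of the fetuin run were counted in all 3 tissues, as was ANKRD17 beside ALB. COX18, the next gene beyond ANKRD17, had 28 and 21 counts in forebrain, 56 and 0 in liver and none in rumen. CXCL8, beyond AFM, had 3 and 12 counts in liver and none elsewhere, and was not tested. The genes between AFM and CXCL8 were not analysed here. EIF4A2, a translation factor beside KNG1, was 2.30-fold lower in liver than in forebrain (adjusted p = 0.00352, edgeR), at 457 ± 17.5 against 1052 ± 74.8 CPM (SD, n = 2), and stood at 703 ± 7.89 CPM in rumen. DNAJB11, a chaperone beside AHSG, stood at 96.3 ± 1.72 CPM in liver and 93.0 ± 1.31 CPM in forebrain, and at 51.9 ± 3.43 CPM in rumen (SD, n = 2). Liver was 1.85-fold above rumen for DNAJB11 (adjusted p = 0.0150, edgeR), a call lost in 6 of 15 alternatives, among them each fit without a Forebrain or a Rumen library (highest adjusted p = 0.138). ANKRD17, beside ALB, was 1.78-fold lower in liver than in forebrain (adjusted p = 0.0148, edgeR), at 60.6 ± 1.53 against 108 ± 5.17 CPM (SD, n = 2), a call lost without either Forebrain library (adjusted p = 0.112 at the highest).

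**Figure D4:**
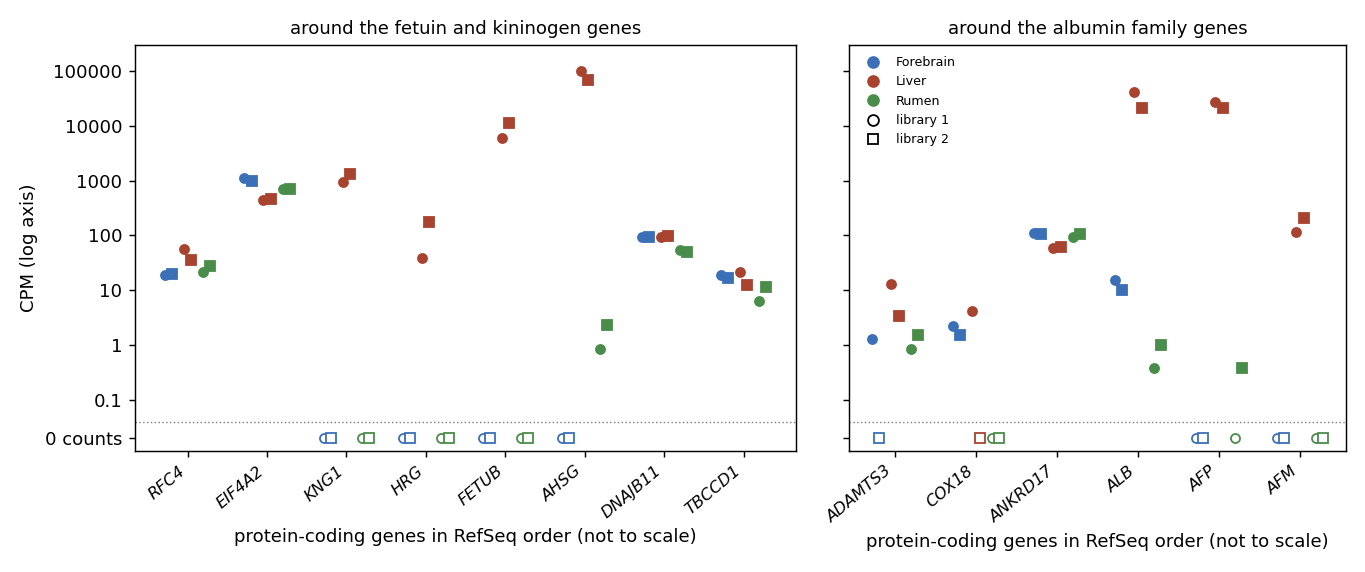
Level in each library, in CPM on a log axis, of the genes in RefSeq order around the fetuin and kininogen genes (left) and the albumin family (right). KNG1, HRG, FETUB, AHSG, ALB, AFP and AFM are high in liver, with ALB the only one of them counted in forebrain and ALB, AHSG and AFP the ones counted in rumen, beside neighbours such as EIF4A2, DNAJB11 and ANKRD17 that were counted in all 6 libraries.

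Other plasma proteins were read from a list of 36 further hepatocyte secreted proteins, 35 of them tested. In liver against forebrain 34 were higher and 1 lower, with a median fitted log2 fold change of 12.51, or 10.63 with the 12 genes without forebrain counts at their bounds, beside a median of 0.14 over all tested genes. Against rumen 34 were higher and 0 lower, with a median of 13.34, or 11.08 with 14 genes at their bounds, beside 0.06, and AZGP1 did not pass. Of the 35, 19 reached 10 counts in no library outside liver and so had to differ, which makes these counts and medians a description. The lower gene, FGL1, named after its values were seen, stood at 26.4 ± 1.72 CPM in forebrain and 10.9 ± 0.427 CPM in liver (SD, n = 2), and its call was lost without either Forebrain library. The most counted were SERPINA1, the inhibitor of neutrophil elastase, at 42895 and 65702 CPM in liver, TF at 11935 and 6076 CPM, and FGB at 7734 ± 2058 CPM (SD, n = 2). TF, like ALB, was thus lower in Liver 2, and SERPINA1 was higher there.

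Relatives of the members went both ways. Of 16 tested, 10 were higher and 4 lower in liver than in forebrain, and 8 were higher and 5 lower than in rumen (3 lower without Rumen 1). GC, the vitamin D carrier of the albumin family, stood at 2115 ± 208 CPM in liver (SD, n = 2), without a count in rumen and at least 18344-fold above it. CST3, the cystatin secreted by most cells, was the reverse of the liver cystatin-domain genes, highest in forebrain at 2104 ± 275 CPM, then rumen at 226 ± 56.5 CPM and liver at 49.8 ± 21.3 CPM (SD, n = 2). It was 42.3-fold lower in liver than in forebrain (adjusted p = 0.000171) and 4.54-fold lower than in rumen (adjusted p = 0.005, edgeR).

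Receptors and partners that act on the members were sparse in some tissues. Of 9 tested receptors and uptake genes, 5 were higher and 1 lower, STRA6, in liver than in forebrain, and 6 were higher and 0 lower than in rumen (3 higher without Rumen 2). ASGR1 and ASGR2, the hepatocyte receptor that clears desialylated plasma proteins, stood at 168 and 258 CPM in Liver 1 and 574 and 664 CPM in Liver 2. FCGRT, which recycles ALB, reached 209 ± 34.9 CPM in liver, 107 ± 12.7 CPM in rumen and in forebrain 20.9 ± 6.08 CPM (SD, n = 2), and was 10.0-fold higher in liver than in forebrain (adjusted p = 0.000294, edgeR). The kinin receptors BDKRB1 and BDKRB2 had 17 and 6 counts in Rumen 2 and none in the other 5 libraries, and were not tested.

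Genes that process the members or respond to them counted 22 tested, with 15 higher and 3 lower in liver than in forebrain (1 lower without Forebrain 2). Against rumen 13 were higher and 4 lower (7 lower without either Liver library, 2 without Rumen 1). Among the enzymes that cut kininogen or its products, KLKB1, plasma kallikrein, stood at 42.9 ± 1.01 CPM in liver with no count elsewhere, at least 374-fold above forebrain (SD, n = 2). F12, which activates it, stood at 114 ± 2.46 CPM in liver (SD, n = 2), at 1.71 and 3.82 CPM in the forebrain libraries and at 0.230 and 2.97 CPM in those of rumen. CPN1, which breaks down bradykinin, stood at 85.4 ± 29.2 CPM in liver with no count elsewhere (SD, n = 2). Others of this group were not highest in liver alone. KLK1, tissue kallikrein, which also cuts kininogen, stood at 2.01 ± 0.522 CPM in liver and 1.91 ± 0.755 CPM in forebrain (SD, n = 2; adjusted p = 0.952, edgeR). MME, neprilysin, which also degrades bradykinin, had 101 counts in forebrain against none in liver, a bound of at least 37.3-fold (adjusted p = 0.0210, edgeR), a call lost without either Forebrain library (adjusted p = 0.104 at the highest).

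Of 19 tested liver transcription regulators, 17 were higher and 0 lower in liver than in forebrain (10 higher without Forebrain 2). Against rumen 12 were higher (7 without Rumen 1) and 2 lower, CEBPD and ZHX2 (1 without either Rumen library). HNF4A had no count in rumen and was at least 1956-fold higher in liver, the tissue through which it entered the test. FOXA3 stood at 72.7 ± 37.5 CPM in liver (SD, n = 2). CEBPD had its higher level in rumen, 254 ± 8.99 CPM, against 74.7 ± 8.36 CPM in liver (SD, n = 2). ZHX2, known in mouse as a repressor of AFP after birth, stood at 5.22 ± 2.20 CPM in liver, 9.75 ± 0.909 CPM in forebrain and, at its highest, 19.2 ± 2.07 CPM in rumen (SD, n = 2). It was 3.68-fold lower in liver than in rumen (adjusted p = 0.0182, edgeR), and not without either Rumen library (adjusted p = 0.101 at the highest).

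Lists of cell type markers gave the following counts. All 17 tested hepatocyte enzymes were higher in liver than in forebrain and 15 higher than in rumen, and all 19 tested erythroid genes were higher in both. Of 11 macrophage genes 7 were higher in liver than in forebrain and 9 than in rumen. Of 14 endothelial genes 8 were higher than in forebrain and 5 than in rumen (2 without either Rumen library, 3 without either Forebrain library and 11 without Liver 2). Of 12 pericyte and stellate genes 7 were higher than in forebrain (4 without Forebrain 2) and 8 than in rumen (5 without either Rumen library). Going the other way, 1 pericyte and stellate gene was lower in liver than in forebrain and 3 were lower than in rumen, as was 1 endothelial gene. All 12 tested neuron genes and all 10 radial glia and astrocyte genes were lower in liver than in forebrain. All 8 tested stratified epithelium genes were lower in liver than in rumen, as were 8 of 9 smooth muscle and 7 of 8 meninges and fibroblast genes. Against forebrain, 5 of the 9 smooth muscle genes were higher in liver and 1 was lower. Of the same 8 meninges and fibroblast genes, 5 were higher in liver than in forebrain (3 without either Rumen library) and 1 was lower. All 7 tested proliferation genes were higher in liver than in forebrain. Of 7 tested choroid plexus genes 4 were higher in liver than in forebrain (2 without Forebrain 2) and 2 lower (1 without Forebrain 1).

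The genes nearest to the members in profile were sought among the tested genes outside the 9 members, as the root mean square difference of gene-centred log2(CPM + 0.5) over the 6 libraries, which share depth and tissue. SERPINA1 was nearest to AHSG, at a difference of 0.604, and to AFP, at 0.556. APOA2, an apolipoprotein of high-density lipoprotein, was nearest to FETUB, at 0.199, and TF to ALB, at 0.655. APOH was nearest to SPP2, at 0.157. KLF1, an erythroid transcription factor, was nearest to A1BG, at 0.271. For RBP4 it was LBP, at 0.233, and for A2M the mitosis gene CENPF, at 0.117. Between members the smallest difference was that of SPP2 and KNG1, at 0.159, and RBP4 and A2M, at 0.980, were nearer to each other than to the other 7. These differences describe 6 libraries and carry no test.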

How the data were processed

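The authors deposited raw counts per gene symbol, with 1 column per library and no scaling. Per the submitters' processing notes, HISAT2 2.0.5, featureCounts 1.5.0-p3 and edgeR 3.18.1 were used. Build, annotation and strandedness of counting were not given in the sources used here. Without strand, a gene's reads cannot be separated from those of an overlapping or antisense gene. Of 14179 symbols, 1359 had no counts. RefSeq's gene table for the assembly ARS-UCD2.0 gave names and neighbour order only, and listed 13929 symbols directly and 167 as synonyms.

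Tests used edgeR 4.0.16 (R 4.3.3) with filterByExpr, which kept 11478 genes, and TMM. Its quasi-likelihood model had tissue as the only term, with 3 residual degrees of freedom (2 without a library). P-values were adjusted by Benjamini-Hochberg over all tested genes, with a threshold of 0.05. Bounds divide the pooled CPM of the tissue with counts by that of 3 counts over both libraries of the tissue without. Count ratio intervals are exact and shares have Wilson intervals, all at 95%. Alternatives were other scalings and filters, limma-voom (limma 3.58.1), DESeq2 1.42.0, a replicate block and leaving out each library. The scripts were tested on simulated data. The 9 genes and the 17 lists (237 of 274 symbols in the table, the others not analysed here) were chosen with earlier results of these data known. All members were named. From the lists the most counted genes and partners of the members were named. Sequences were not used here. Results on some list genes are not reported here.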

Additional observations from a re-analysis of the deposited data

How the results depend on the processing

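The 9 members were higher in liver in all 15 alternatives, in both liver comparisons. FETUB, AFP, A1BG, SPP2 and KNG1 passed the filter on low counts through liver alone and so had to differ, which makes this count a description. In rumen against forebrain, 1 to 2 members were higher without 1 library, and the log2 fold change of RBP4, not called, ran from -0.78 without Forebrain 1 to 0.022 without Forebrain 2. Of the other named genes, none of them called in the comparison concerned, DNAJB11 in liver against forebrain turned to -0.031 with DESeq2 size factors or DESeq2, -0.029 with totals taken without plasma and erythroid genes, -0.016 with only the 2 tissues compared and -0.44 with library totals. KLK1 in the same comparison turned to -0.42 with library totals and -0.00034 with DESeq2, and ran from -0.28 to 0.54 without 1 library. Leaving out 1 library, STRA6 in liver against rumen ran from -6.89 (without Liver 2) to 0.081 (without Rumen 2), and FGB in rumen against forebrain from -0.64 (without Rumen 2) to 1.11 (without Rumen 1). The cause was not tested. No value without Rumen 2 could be had for AFP in that comparison. Calls over all genes moved more, leaving out 1 library: 1877 to 4127 higher and 1764 to 3810 lower in liver against forebrain, 1013 to 3479 and 1231 to 3391 in liver against rumen, and 931 to 3482 and 947 to 3659 in rumen against forebrain. With only those 2 tissues fitted, rumen against forebrain gave 3568 higher and 3591 lower. Library totals alone shifted the median of all genes by -0.48 in liver against forebrain (2559 higher, 3946 lower, against 3377 and 2976), by -0.29 in liver against rumen (1785 and 2980, against 2325 and 2304) and by -0.15 in rumen against forebrain.

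The replicate block used library numbers that the labels tie to no fetus. Deviations of same-numbered libraries correlated at 0.0794 (forebrain and liver), -0.0757 (forebrain and rumen) and 0.00844 (liver and rumen), too low to pair them, while whether they share a fetus is not known. Under the block 9, 9 and 2 members were higher and 1 was lower in rumen than in forebrain, and over all genes 3055 were higher and 2712 lower, 2004 and 2017, and 1990 and 1971. With 2 libraries per tissue, small differences were not detectable.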
